A study of Mus musculus with 16 samples.

Results

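Adipocytes keep their triglyceride in lipid droplets, and the 10 genes described here encode proteins that coat these droplets, build them at the endoplasmic reticulum or restrain the lipase on their surface. They are Plin1, Plin2, Plin3, Plin5, Cidec, Bscl2, Fitm2, Hilpda, G0s2 and Hsd17b13, 10 of the 35556 gene symbols with an entry in the expression table, and were chosen by name, each entry being taken where its RefSeq identifier maps to one of these symbols. RNA was measured in bulk inguinal subcutaneous adipose tissue (SAT) and mesenteric visceral adipose tissue (VAT) of 8 wild-type male C57BL/6J mice. The 4 lean mice ate a normal laboratory diet and the 4 obese mice a high-fat diet (42% of energy from fat, 0.2% cholesterol), and both groups, matched in age, stayed on their diet for 12 to 14 months from 10 weeks of age. From every mouse came 1 SAT and 1 VAT library, 16 in 4 groups of 4, so the mouse is the replicate. Left and right inguinal pads of a mouse were combined, and visible blood vessels were dissected away.

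A lipid droplet is a core of neutral lipid under a single layer of phospholipid, on which proteins of the perilipin (Plin) family form a coat that decides how readily lipases reach the core. Plin1 is the main coat protein of the adipocyte and opens the droplet to lipolysis when it is phosphorylated, Plin2 and Plin3 are found in most cells, and Plin5 is best known from oxidative tissues such as heart and brown fat, where it ties droplets to mitochondria. Seipin (Bscl2) and Fitm2 sit in the endoplasmic reticulum and help new droplets form, Cidec fuses small droplets into the single large one of white adipocytes, G0s2 and Hilpda inhibit the triglyceride lipase ATGL, and Hsd17b13 is a droplet enzyme best known from liver.

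The table lists RefSeq transcripts, so 1 gene can have several entries. The 10 genes had 25 entries, of which 19 held at least 1 count and 13, in 9 genes, passed the filter for testing (above 1 CPM, the count scaled to a common library total, in 3 or more of the 16 libraries). How reads shared by several transcripts of a gene were counted is not given in the sources used here, so the level of a gene with several entries may be understated, and levels were not compared between genes. Library totals ran from 1256082 to 16614407 counts (median 10735471.5), and the VAT libraries of lean replicate 1 (1256082) and obese replicate 1 (2247737) were the shallowest. One count stood for 0.0602 to 0.796 CPM of the plain library total. On that scale a count of 0 allowed up to 0.181 to 2.39 CPM (3 counts at 95% confidence, covering counting error only). Of 8 adipocyte markers, Adipoq, the adipocyte hormone adiponectin, lay between 2713 and 7186 CPM over all libraries and Fabp4 between 7349 and 37087 CPM, while Aqp7 lay between 7.28 and 19.5 CPM and Slc2a4 between 0 and 2.54 CPM. CPM values were scaled with TMM factors (a correction for library composition), fold changes are on the log2 scale with their standard error (SE), and p-values of edgeR's quasi-likelihood F-test were adjusted over all 13288 transcripts tested (Benjamini-Hochberg).

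In SAT, 4 of the 9 tested genes were upregulated in obese relative to lean mice and none was downregulated: Hilpda, Plin2, Plin5 and Bscl2. They account for 5 of the 13 transcripts, where 11.0% of all transcripts tested were called, 6.20% of them higher and 4.85% lower. Beyond a log2 fold change of 1.5 there were 3 transcripts, 1 each of Hilpda, Plin2 and Plin5, against a background of 2.75%. The median log2 fold change of the 13 transcripts was 0.17, beside 0.01 over all transcripts tested.

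Hilpda, which is induced by hypoxia and by fatty acids, showed the highest fitted fold of the 13 transcripts in SAT. Its main transcript (NM_023516) was at 14.5, 5.63, 3.24 and 11.3 CPM in SAT of the 4 lean mice and at 29.8, 65, 34.1 and 52.9 CPM in SAT of the 4 obese mice. The groups did not overlap, as the lowest obese library was still above the highest lean one. The log2 fold change was 2.39 (SE 0.40, edgeR adjusted p = 0.000387), a 5.24-fold rise, and the transcript was called in all 18 alternative analyses (highest adjusted p 0.00342). The fold was 8 without both mice that had a shallow VAT library, an alternative chosen after seeing the data (edgeR adjusted p = 0.00018). The SAT libraries of these mice were not shallow (11897722 counts in lean replicate 1 and 14813014 in obese replicate 1). They held the highest lean and the lowest obese value, so leaving them out raises the fold. The other Hilpda transcript held 0 to 3 counts a library and was not tested.

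Plin2 rose in both tested transcripts. NM_007408 was at 3.72, 1.83, 2.29 and 3.4 CPM in lean SAT and at 7.31, 6.78, 6.21 and 4.24 CPM in obese SAT, and XM_006537557 was at 2.97, 1.83, 2.95 and 1.06 CPM in lean SAT and between 7.04 and 7.62 CPM in obese SAT. Neither transcript overlapped between the groups, though on CPM without TMM factors NM_007408 did (1.78 to 3.78 CPM in lean and 3.34 to 6.41 CPM in obese SAT). The 4 obese libraries of XM_006537557 were close together (7.3 ± 0.243 CPM, SD). Log2 fold changes were 1.12 (SE 0.25, edgeR adjusted p = 0.00522) and 1.64 (SE 0.29, edgeR adjusted p = 0.000688), and both transcripts were called in all 17 alternatives. Summed over its transcripts, Plin2 rose by 1.35 on the log2 scale (SE 0.21, edgeR adjusted p = 0.000188), a 2.55-fold change.

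Plin5 stood at few counts. Its tested transcript (NM_001077348) had 11, 1, 3 and 0 counts in lean SAT and 15, 21, 16 and 20 counts in obese SAT, which is 0.909, 0.141, 0.286 and 0 CPM against 1.15, 2.22, 1.1 and 1.54 CPM. The groups did not overlap, with the highest lean library just below the lowest obese one in CPM. The fitted log2 fold change was 1.84 (SE 0.55, edgeR adjusted p = 0.0319). The call was lost when lean replicate 2, 3 or 4 or obese replicate 2 or 4 was left out (edgeR adjusted p 0.0995, 0.0951, 0.0692, 0.109 and 0.0696, with a range of 0.00414 to 0.109 over all 18 alternatives). Without lean replicate 1, the highest lean library, the log2 fold change was 3 (8-fold, edgeR adjusted p = 0.00414) in place of 1.84 (3.59-fold).

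Bscl2, which encodes seipin, rose in 1 of its 2 tested transcripts. XM_006526691 was at 3.8, 6.19, 2.95 and 4.68 CPM in lean SAT and at 9.08, 9, 5.66 and 6.64 CPM in obese SAT, so that lean replicate 2 overlapped the obese libraries. Its log2 fold change was 0.81 (SE 0.26, edgeR adjusted p = 0.0481), while NM_001136064 had 0.17 (SE 0.19, edgeR adjusted p = 0.627) and the sum over the gene 0.45 (SE 0.15, edgeR adjusted p = 0.0611). The call for XM_006526691 held in 7 of 17 alternatives and was lost without lean replicate 1, 3 or 4 or obese replicate 1, 2 or 4 (edgeR adjusted p 0.121, 0.183, 0.0824, 0.0862, 0.137 and 0.0579), in a fit of the 8 SAT libraries alone (0.0516), and with low counts left in or another filter (0.0651 and 0.0522).

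The other tested genes did not pass the test in SAT. Plin3, the coat protein that moves between cytosol and droplet, was at 123.3 ± 21.3 CPM in lean and 106.2 ± 10.2 CPM in obese SAT (SD, n = 4). Fitm2 was at 243.1 ± 26.4 and 282.3 ± 30.9 CPM, G0s2 at 186.9 ± 54.1 and 184.2 ± 35 CPM, and the Plin1 transcript XM_011250776 at 68.6 ± 5.24 and 75.8 ± 21.7 CPM. In Plin1 the obese libraries spread more widely than the lean ones, 2 of them (99.5 and 88.4 CPM) above all lean libraries and 2 (61.6 and 53.5 CPM) below. Non-overlap between the diets was seen for 4 of the 13 transcripts in SAT, the main Hilpda transcript, both of Plin2 and that of Plin5, all with the obese libraries above. Over all transcripts 17.2% did not overlap, 9.61% with the obese libraries above and 7.64% with them below.

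Macrophage markers moved in the same tissue. The summed level of 8 macrophage markers ran from 1245 to 1717 CPM in lean SAT and from 1946 to 2884 CPM in obese SAT, with 4 of the 8 genes called higher and none lower, and that of 8 markers of lipid-associated macrophages from 146.1 to 214.3 and from 283.9 to 368.5 CPM, with 3 of the 8 called higher. The summed adipocyte markers ran from 44694 to 61460 CPM in lean and from 37975 to 53594 CPM in obese SAT, with 1 gene called higher and 1 lower. The summed level of 8 markers of brown and beige adipocytes, the cells in which Plin5 is well known, ran from 199.5 to 359.7 CPM in lean and from 390.1 to 562.3 CPM in obese SAT, with 2 genes called higher and 2 lower. Most of this sum was Pdk4 (164.6 to 300 CPM in lean and 373.6 to 539.8 CPM in obese SAT), while Cidea lay between 18.3 and 66.1 and between 10.2 and 14.6 CPM, Dio2 between 6.33 and 25 and between 1.47 and 2.22 CPM, and Ucp1 between 0 and 0.413 and between 1.62 and 5.18 CPM. No defining macrophage marker was at 0 in every library of a group, and Adgre1 stayed at or below 0.141 CPM in SAT. The part of these cells in the changes of Hilpda, Plin2 and Plin5 was not tested, and in bulk tissue fewer cells of a type and less RNA per cell cannot be told apart.

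**Figure D1:**
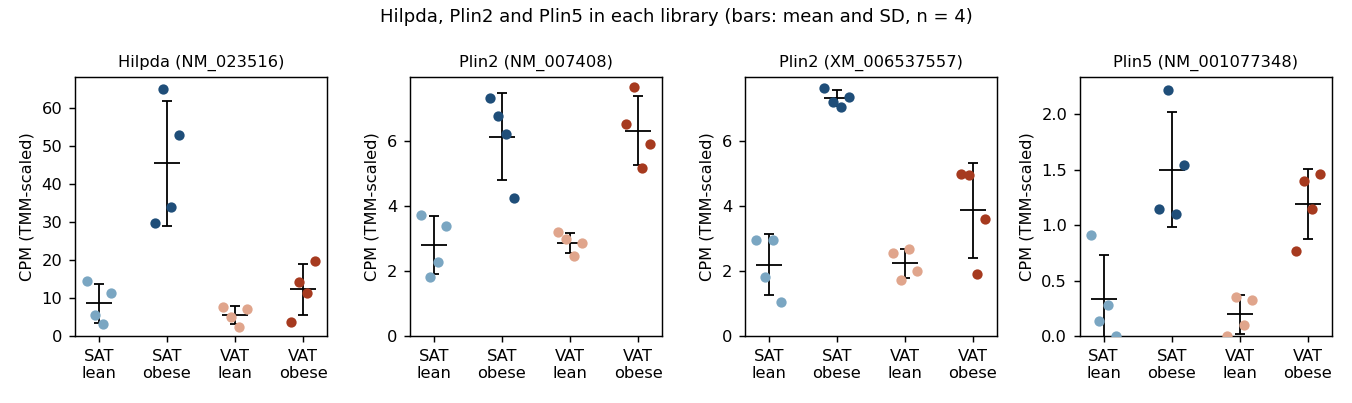
TMM-scaled CPM (y axis, linear from 0) of the tested transcripts of Hilpda, Plin2 and Plin5 in each of the 16 libraries, grouped by tissue and diet (x axis). Points are libraries and bars the mean and SD of 4 mice. On this scale every obese SAT library lies above every lean one in all 4 panels (without TMM factors NM_007408 overlaps), and in VAT this holds for NM_007408 of Plin2. In VAT the Plin5 points do not overlap either, but the lean point at 0 from the shallowest library allows up to 2.39 CPM on the scale without TMM factors.

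In VAT, Plin2 and Plin5 were upregulated with obesity, and Fitm2 and Plin1 were downregulated. These are 4 of the 13 transcripts and 4 genes, where 10.9% of all transcripts were called, 6.82% higher and 4.09% lower. Beyond a log2 fold change of 1.5 only Plin5 was called, against a background of 3.17%. The median of the 13 transcripts was -0.30, beside 0.02 over all transcripts tested.

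Plin2 NM_007408 was at 3.2, 2.99, 2.47 and 2.87 CPM in lean VAT and at 6.52, 7.67, 5.17 and 5.91 CPM in obese VAT, with no overlap. This was a log2 fold change of 1.15 (SE 0.26, edgeR adjusted p = 0.0052), and the call held in all 17 alternatives. XM_006537557 was at 2.56, 1.73, 2.68 and 1.99 CPM in lean VAT and at 4.98, 4.95, 1.92 and 3.6 CPM in obese VAT, where obese replicate 3 fell among the lean libraries. Its log2 fold change was 0.79 (SE 0.32, edgeR adjusted p = 0.127), and without obese replicate 3 it was 1.04 (edgeR adjusted p = 0.0436, with a range of 0.0436 to 0.389 over 17 alternatives). The sum over the gene rose by 0.97 on the log2 scale (SE 0.22, edgeR adjusted p = 0.00524).

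Plin5 had 0, 6, 1 and 3 counts in lean VAT and 2, 17, 12 and 17 counts in obese VAT, which is 0, 0.359, 0.107 and 0.331 CPM against 0.767, 1.4, 1.15 and 1.46 CPM. The values did not overlap, but both replicates numbered 1 came from shallow libraries. On CPM without TMM factors, the 0 counts of lean replicate 1 allow up to 2.39 CPM, above all obese values on that scale (0.89 to 1.6 CPM). A separation from this library could therefore not be shown at its depth. The log2 fold change was 2.21 (SE 0.62, edgeR adjusted p = 0.0212), and the call was lost without lean replicate 3 or obese replicate 2 or 4 (edgeR adjusted p 0.0866, 0.06 and 0.0803, with a range of 0.00878 to 0.0866 over 18 alternatives).

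Fitm2, which promotes the budding of droplets from the endoplasmic reticulum, was at 202.4, 224.7, 247.2 and 202.3 CPM in lean VAT and at 171.7, 185.8, 164.6 and 102.3 CPM in obese VAT. All obese libraries lay below all lean ones, obese replicate 4 farthest. On the log2 scale the change was -0.49 (SE 0.15, edgeR adjusted p = 0.032), a 1.41-fold reduction. The call was lost without lean replicate 2 or 3 or obese replicate 3 or 4 (edgeR adjusted p 0.0762, 0.117, 0.0587 and 0.112, with a range of 0.00762 to 0.117 over 18 alternatives), and in a fit of the 8 VAT libraries alone (log2 -0.52, edgeR adjusted p = 0.064).

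Plin1 XM_011250776 was at 82.6, 53.9, 68.9 and 61.2 CPM in lean VAT and at 53.7, 45.2, 42.5 and 27.7 CPM in obese VAT. The groups did not overlap, though lean replicate 2 and obese replicate 1 nearly met, and on CPM without TMM factors they did (57 to 103 CPM in lean and 30.4 to 62.3 CPM in obese VAT). The log2 fold change was -0.66 (SE 0.20, edgeR adjusted p = 0.0329), and the call was lost without lean replicate 1 or 3 or obese replicate 2, 3 or 4 (edgeR adjusted p 0.0751, 0.0894, 0.0564, 0.0621 and 0.0967, with a range of 0.0024 to 0.0967 over 17 alternatives). NM_175640 had -0.43 (SE 0.19, edgeR adjusted p = 0.161), and the sum over the gene fell by 0.61 on the log2 scale (SE 0.19, edgeR adjusted p = 0.0369).

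Hilpda did not pass the test in VAT. It was at 7.69, 5.2, 2.36 and 7.29 CPM in lean VAT and at 3.83, 14.2, 11.5 and 19.8 CPM in obese VAT, where the lowest value came from 10 counts in the shallow library of obese replicate 1. The other 3 obese libraries lay above all lean ones. The log2 fold change was 1.32 (SE 0.43, edgeR adjusted p = 0.0513), and it passed without obese replicate 1 (log2 1.5, edgeR adjusted p = 0.023) or lean replicate 1 (log2 1.38, edgeR adjusted p = 0.0378). It also passed without both of these mice (0.0116), with the replicate number as a block (0.0177), with legacy=FALSE (0.0297) and with low counts left in (3.07e-06), 6 of 18 alternatives in all, over which the edgeR and other adjusted p ran up to 0.236. With low counts left in, the log2 fold change was no higher (1.27), and the lower p came with a smaller SE (0.23, beside 0.43).

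Of the remaining genes in VAT, the Cidec transcript NM_001301295 was at 95.6 ± 45.7 CPM in lean and 63 ± 34.8 CPM in obese mice (SD, n = 4; log2 -0.60, SE 0.37, edgeR adjusted p = 0.351) and NM_001372264 at 7.49 ± 2.29 and 4.52 ± 1.66 CPM (log2 -0.71, SE 0.29, edgeR adjusted p = 0.134). G0s2 was at 157.6 ± 88.5 and 188.5 ± 61.6 CPM and Plin3 at 113.8 ± 16.4 and 125.9 ± 13.2 CPM, both with overlapping groups. For Bscl2 NM_001136064 the obese libraries (7.28 to 10.3 CPM) lay below the lean ones (10.6 to 12.8 CPM), yet the log2 fold change of -0.30 (SE 0.20, edgeR adjusted p = 0.384) did not pass. The obese libraries were all above the lean ones for 2 of the 13 transcripts (Plin2 NM_007408 and, with the limit given above, Plin5) and all below for 3 of them. Over all transcripts 13.4% did not overlap, 8.36% with the obese libraries above and 4.99% with them below.

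**Figure D2:**
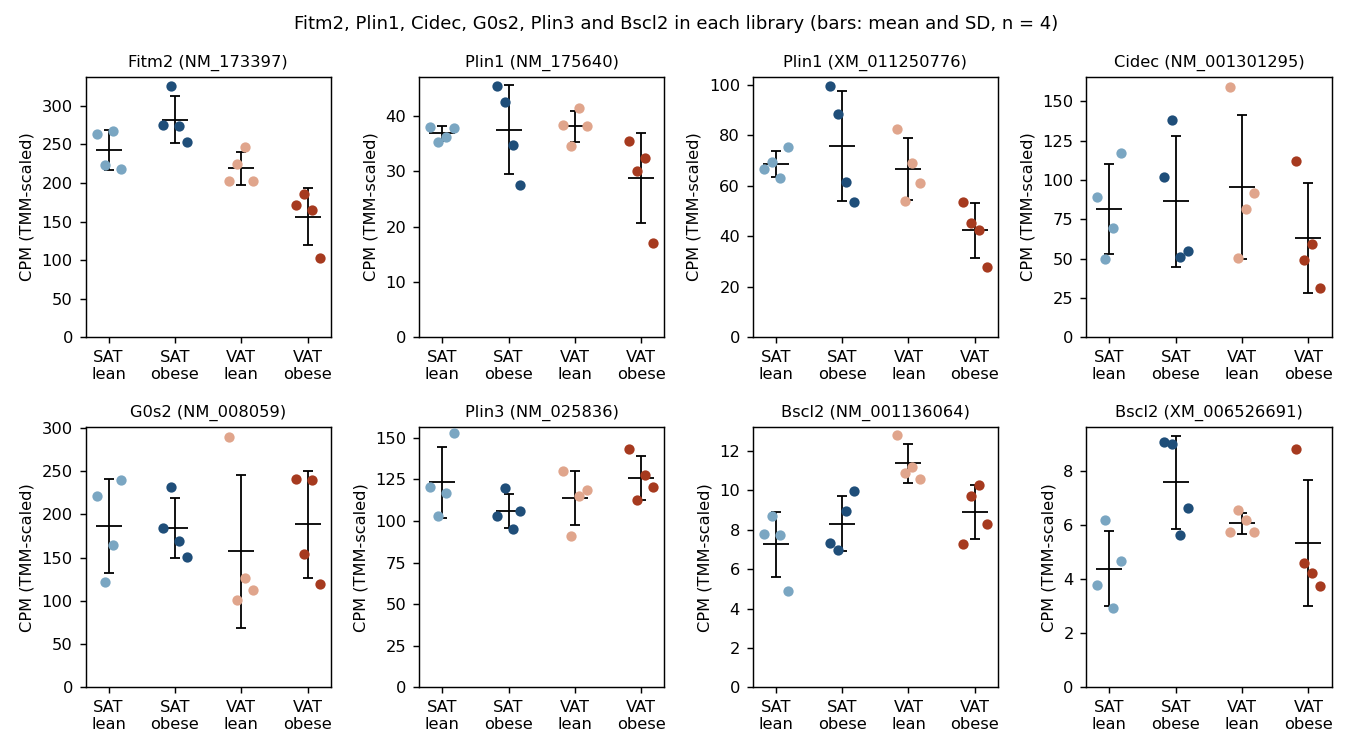
TMM-scaled CPM (y axis, linear from 0) of transcripts of Fitm2, Plin1, Cidec, G0s2, Plin3 and Bscl2 in each library, by tissue and diet (x axis). Points are libraries and bars the mean and SD of 4 mice. The obese VAT libraries lie below the lean VAT libraries for Fitm2, for Plin1 XM_011250776 (not without TMM factors) and for Bscl2 NM_001136064, and the lean replicate 1 library of VAT stands at the top of the G0s2 and Cidec panels.

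Some adipocyte markers fell in the same VAT libraries in which Fitm2 and Plin1 fell. The summed level of the 8 ran from 24733 to 39513 CPM in lean and from 17168 to 31011 CPM in obese VAT, and 4 of the 8 genes were called lower and none higher. The macrophage sum ran from 2167 to 2892 CPM in lean and from 4450 to 6852 CPM in obese VAT (5 of 8 genes higher), and the sum for lipid-associated macrophages from 154.4 to 217 and from 548 to 1890 CPM (7 of 8 higher). T cell markers ran from 9.54 to 15.1 CPM in lean and from 23.8 to 49.3 CPM in obese VAT (2 of 5 higher), and B cell markers from 29.2 to 221.6 and from 177 to 318.7 CPM (2 of 4 higher). The brown and beige sum ran from 287.6 to 415.3 CPM in lean and from 321.9 to 557 CPM in obese VAT (1 of 8 higher and 1 lower), and Ucp1 among them from 0 to 0.884 and from 6.51 to 15.4 CPM. Mesothelial markers were at most 1.41 CPM in SAT and between 244.7 and 597.2 CPM in VAT. Hepatocyte markers summed to 367.2 CPM in obese replicate 1 of VAT, where the obese VAT median was 27.8 CPM and lean VAT ran from 17.9 to 51.3 CPM, and without that mouse the calls of Fitm2, Plin1, Plin2 and Plin5 in VAT held. The part of these shifts in the changes of Fitm2, Plin1, Plin2 and Plin5 was not tested.

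The diet response differed between VAT and SAT for Hilpda, Fitm2 and 1 of the 2 tested Plin1 transcripts, each lower in VAT. In a fit with a term for each mouse, 3 of the 13 transcripts were called where 2.17% of all transcripts were, 0.880% with a higher and 1.29% with a lower response in VAT. None of the 3 lay beyond a difference of 1.5, where 0.632% of all transcripts did. The difference on the log2 scale was -1.39 for Hilpda (SE 0.30, edgeR adjusted p = 0.0148), -0.74 for Fitm2 (SE 0.16, edgeR adjusted p = 0.0148) and -0.77 for Plin1 XM_011250776 (SE 0.19, edgeR adjusted p = 0.032). Plin1 NM_175640 did not pass (-0.46, SE 0.19, edgeR adjusted p = 0.252), while the sum over Plin1 did (-0.69, SE 0.17, edgeR adjusted p = 0.031). The median difference over the 13 transcripts was -0.66, beside 0.03 over all transcripts. For the other transcripts that rose in SAT the difference did not pass (log2 -0.06, SE 0.37, for Plin2 NM_007408, -1.07, SE 0.43, for Plin2 XM_006537557, -0.27, SE 1.01, for Plin5 and -1.08, SE 0.35, for Bscl2 XM_006526691). The Plin5 value ran from -0.91 to 0.37 over 15 alternatives.

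Without the mouse as a block none of these 3 differences passed (log2 -1.07 for Hilpda, -0.71 for Fitm2 and -0.80 for Plin1, edgeR adjusted p 0.444, 0.103 and 0.173). With the block, the Hilpda call was lost without lean replicate 2 or obese replicate 2 (edgeR adjusted p 0.0825 and 0.051), the Fitm2 call without lean replicate 2 or 3 or obese replicate 4 (0.0618, 0.0602 and 0.0628), and the Plin1 call without lean replicate 3 or obese replicate 2 or 4 (0.118, 0.0777 and 0.106). The Plin1 call was also lost without both mice that had a shallow VAT library (0.0766). Of the markers, 4 of 8 for lipid-associated macrophages had a higher diet response in VAT and 1 of 8 for adipocytes a lower one. Their part in these differences was not tested.

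**Figure D3:**
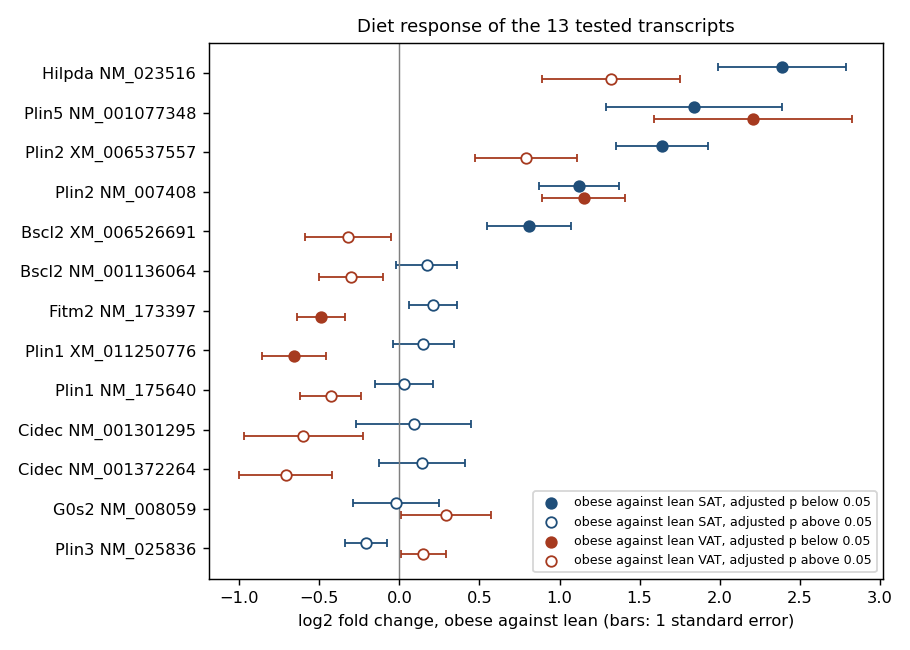
Log2 fold change of obese relative to lean mice (x axis, bars 1 SE) for the 13 tested transcripts (y axis), in SAT (blue) and VAT (red). Filled points have an adjusted p below 0.05 and open points do not. Hilpda, Plin5 and both Plin2 transcripts lie right of 0 in both tissues, and Fitm2, Plin1 and Cidec lie left of 0 in VAT.

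In lean mice 1 of the 9 tested genes was called between the tissues. Bscl2 NM_001136064 was higher in VAT in 4 of 4 mice (log2 0.64, SE 0.21, edgeR adjusted p = 0.0411). Over all transcripts 14.8% were called, 8% higher and 6.84% lower in VAT, and 5.44% were called beyond a log2 fold change of 1.5, none of them among the 13. It was at 7.77, 8.72, 7.72 and 4.89 CPM in SAT and at 12.8, 10.9, 11.2 and 10.6 CPM in VAT. The call was lost when any lean mouse or obese replicate 3 was left out (edgeR adjusted p 0.0899, 0.0553, 0.105 and 0.168 without lean replicates 1 to 4, and 0.0525 without obese replicate 3), or with low counts left in (0.156). Higher in lean VAT were also 4 of 8 macrophage markers, 3 of 4 for B cells, 1 of 5 for T cells and all 5 for mesothelium. Of the 8 adipocyte markers 2 were lower and 1 was higher. Their part was not tested.

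In obese mice transcripts of 5 genes were lower in VAT than in SAT of the same mouse and none was higher: Hilpda, Fitm2, Plin1, Plin2 and Cidec. They hold 6 of the 13 transcripts, where 29.4% of all transcripts were called, 15.9% higher and 13.5% lower. Beyond a log2 fold change of 1.5 the call was Hilpda alone, against a background of 9.59%. Hilpda was lower in VAT in 4 of 4 mice (log2 -1.89, SE 0.19, edgeR adjusted p = 1.41e-07), a 3.71-fold reduction, and Fitm2 was lower in 4 of 4 mice (log2 -0.89, SE 0.11, edgeR adjusted p = 3.89e-06). Both calls held in all 16 alternatives. Plin1 was lower in both transcripts in 4 of 4 mice (log2 -0.84, SE 0.13, edgeR adjusted p = 4.77e-05 for XM_011250776, and log2 -0.41, SE 0.14, edgeR adjusted p = 0.0258 for NM_175640).

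Plin2 XM_006537557 and Cidec NM_001372264 were lower in VAT in 4 of 4 obese mice as well (log2 -1.01, SE 0.27, edgeR adjusted p = 0.00618, and log2 -0.64, SE 0.22, edgeR adjusted p = 0.0302). The other Plin2 transcript, NM_007408, had 0.07 (SE 0.24), and the sum over Plin2 -0.45 (SE 0.19, edgeR adjusted p = 0.0718). Cidec NM_001372264 held on average 7.91% of the gene's counts in obese SAT and 7.12% in obese VAT. The main Cidec transcript, NM_001301295, was higher in VAT in 2 of 4 mice (log2 -0.48, SE 0.21, edgeR adjusted p = 0.0876), and the sum over Cidec was not called (-0.53, SE 0.21, edgeR adjusted p = 0.0619). The Plin2 call was lost without obese replicate 3 (edgeR adjusted p = 0.0769), the Cidec call without obese replicate 2 or 4, without the mouse as a block or with low counts left in (0.137, 0.117, 0.0616 and 0.0718), and the Plin1 NM_175640 call without obese replicate 2 or 4 or without the block (0.105, 0.155 and 0.105). Of the 8 adipocyte markers 5 were also lower and 1 was higher in obese VAT than in obese SAT. Higher in VAT were 6 of 8 macrophage markers, 7 of 8 for lipid-associated macrophages, all 4 for B cells, 3 of 5 for T cells, 3 of 8 for brown and beige adipocytes and all 5 for mesothelium. Their part was not tested.

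**Figure D4:**
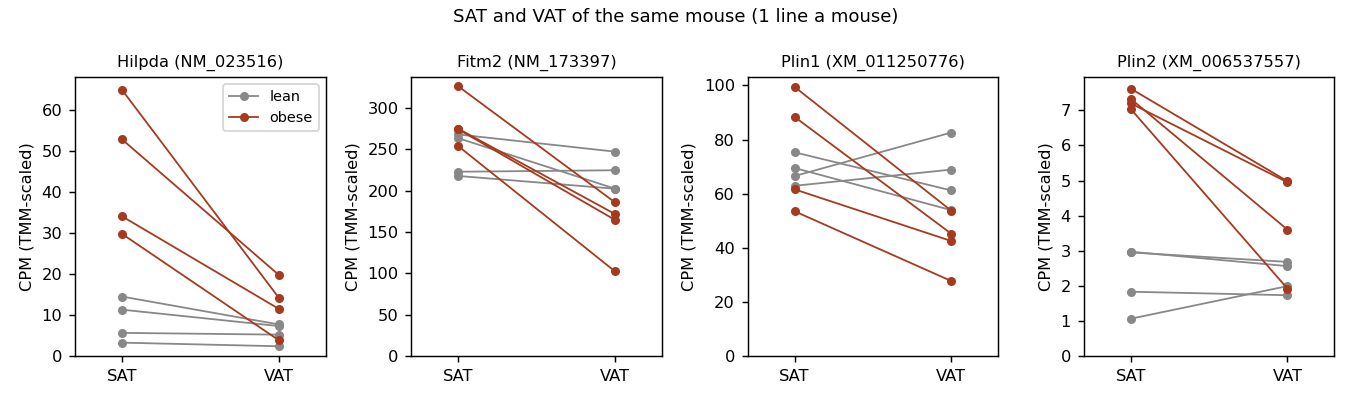
TMM-scaled CPM (y axis, linear from 0) in SAT and VAT (x axis) of the same mouse, 1 line a mouse, for Hilpda NM_023516, Fitm2 NM_173397, Plin1 XM_011250776 and Plin2 XM_006537557. In all 4 obese mice (red) each line of these 4 transcripts falls from SAT to VAT, and in the lean mice (grey) all 4 lines fall for Hilpda alone.

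The share of a gene's counts taken by 1 of its transcripts was compared between diets for Plin1, Plin2, Cidec and Bscl2 in both tissues, 8 comparisons by exact permutation test (two-sided, smallest possible p 0.0286). None passed (adjusted p 0.411 to 0.971), but a single one of 8 such comparisons cannot go below 0.229 after adjustment, so this says nothing on whether the shares differ. For Plin2 in SAT the share of XM_006537557 was 43.7% ± 14.1 in lean and 54.8% ± 5.79 in obese mice (SD, n = 4). Hsd17b13 could not be tested, since its 2 transcripts held 17 counts over all 16 libraries and its level lay between 0 and 0.479 CPM.

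Over the 16 libraries the transcripts with the pattern most like that of Hilpda were Vhl (Pearson's r = 0.925 on log2 CPM) and Glt28d2 (0.912). For Plin2 XM_006537557 they were the non-coding Ghrl transcript NR_138135 (0.924) and Sgk1 (0.915), and for Plin5 Gm35763 (0.924) and Rtp4 (0.917). These 16 points share the 4 groups, the 8 mice and the differences in depth, so the values describe likeness alone.

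The promoters of the 3 genes with the highest fold changes are shown because they hold the letters of motifs known for lipid and oxygen sensing: AGGTCA, the core read by nuclear receptors such as the PPARs, and ACGTG and GCGTG, the 2 forms of the core of the hypoxia response element. Searched on both strands in the 250 bases before RefSeq starts, AGGTCA was found in 14% of 32851 promoter windows and in 4 of the 15 windows of these genes (1 each in Bscl2, Hsd17b13, Plin2 and Plin5), and ACGTG in 16.6% of all windows and in 1 of the 15, in Hilpda. AGGTCA followed by any 1 base and AGGTCA again was in 0.0335% of windows and in none of these genes. GCGTG, which shares its last letters with ACGTG, was in 28.2% of all windows and in 8 of the 15, those of Bscl2, Cidec, Fitm2, G0s2, Hilpda, Plin2 and Plin5, so a core of the hypoxia response element was not particular to Hilpda. Capitals mark the motif (in Plin2 it is on the opposite strand). Its outermost base lies 55 bases before the start of the gene in the GENCODE annotation in Plin2 and 108 in Plin5, which is 218 and 170 bases before RefSeq starts that lie inside these genes. In Hilpda it lies 43 bases before the second RefSeq start, also inside the gene. Sequences are from the RefSeq promoter table, matched exactly to GRCm39, at chr4:86588460-86588546 (minus strand), chr17:56424611-56424798 (minus strand) and, within the gene, chr6:29272570-29272599 (plus strand).
Plin2: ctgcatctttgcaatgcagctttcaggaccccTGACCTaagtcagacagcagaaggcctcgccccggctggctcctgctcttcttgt
Plin5: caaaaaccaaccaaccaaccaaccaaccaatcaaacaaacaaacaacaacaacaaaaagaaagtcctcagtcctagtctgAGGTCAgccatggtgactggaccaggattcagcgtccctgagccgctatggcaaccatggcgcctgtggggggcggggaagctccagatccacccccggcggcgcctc
Hilpda: gatggccagcggACGTGccccagggcgagc

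A match of such short letters is a description of these windows and not a binding site. In GRCm39 the 3 genes lie at chr4:86565912-86588459 (Plin2, minus strand), chr17:56418446-56424610 (Plin5, minus strand) and chr6:29272409-29276301 (Hilpda, plus strand). Plin3 lies 160 kb from Plin5 on chromosome 17, at chr17:56584218-56599873, and was called in neither tissue, while Plin5 was called in both.

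Of 20 further droplet proteins 18 were in the table and 12 were tested, and in SAT 1 rose and 2 fell while in VAT none was called. Over all transcripts tested 11.0% were called in SAT and 10.9% in VAT. In lists this small, counts near these shares say little about the list. In SAT Cidea, the relative of Cidec typical of brown fat, fell from 39 ± 21.9 to 13.1 ± 2.1 CPM (log2 -1.58, SE 0.30, edgeR adjusted p = 0.0012), and Nsdhl, a sterol synthesis enzyme that also sits on droplets, rose from 120.6 ± 14.6 to 304.3 ± 50.6 CPM (log2 1.34, SE 0.13, edgeR adjusted p = 4.62e-07).

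Of 9 lipases and cofactors, all tested, 2 rose and 2 fell in SAT, and 1 rose and 3 fell in VAT. The shares called over all transcripts were 11.0% in SAT and 10.9% in VAT. Ces1d, a carboxylesterase that hydrolyses triglyceride, fell in both tissues, from 2771 ± 741.9 to 1333 ± 124.1 CPM in SAT (log2 -1.06, SE 0.19, edgeR adjusted p = 0.000605) and from 3248 ± 601.6 to 1501 ± 358.1 CPM in VAT (log2 -1.11, SE 0.19, edgeR adjusted p = 0.000321). Of its relative Ces1f only the predicted non-coding transcript XR_387740, 1 of 2, was tested, and it was lower in both (log2 -1.36 in SAT and -1.99 in VAT). Lipa, the lysosomal acid lipase, rose in SAT in the 1 tested of its 2 transcripts (log2 1.16, SE 0.19, edgeR adjusted p = 0.00026), as did Aadac (log2 4.26, SE 0.84), which stood at 0.167 ± 0.334 CPM in lean SAT. In VAT the median log2 fold change over the 14 transcripts of these genes was -0.76, beside 0.02 over all transcripts tested.

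Among 13 enzymes of triglyceride synthesis 10 were tested, with 2 genes higher and 1 lower in SAT, and 1 higher and 2 lower in VAT. Here too the shares over all transcripts were 11.0% in SAT and 10.9% in VAT. Acsl1, which activates fatty acids, rose in SAT from 150.3 ± 39.9 to 307.9 ± 93 CPM in 1 of its 8 transcripts, of which 3 were tested (log2 1.04, SE 0.23, edgeR adjusted p = 0.00552). Of Gpat4 only the predicted transcript XM_011242104, 1 of 2, was tested, and it fell from 3.25 ± 1.35 to 1.21 ± 0.677 CPM (log2 -1.43, SE 0.43, edgeR adjusted p = 0.034). In VAT Mogat2 fell in the 1 tested of its 2 transcripts (log2 -2.04, SE 0.50, edgeR adjusted p = 0.00908), as did Dgat1, which makes triglyceride from diacylglycerol, in 1 of 4 transcripts (log2 -1.25), and 1 of 4 Lpin3 transcripts, the predicted non-coding XR_374500, rose (log2 1.20). Of 11 transcription factors known to act on droplet genes 5 could be tested, and 1 rose in SAT and none was called in VAT, beside the same shares over all transcripts.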

How the data were processed

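The data are bulk RNA-seq of SAT and VAT from 4 lean and 4 obese mice, and groups were taken from the labels. Poly(A), directional libraries were sequenced, and the authors trimmed the reads with Trim Galore 0.6.6, aligned them with HISAT2 2.2.0 to GRCm39 with RefSeq annotation and counted them with HTSeq 0.13.5. The deposited table holds raw counts per RefSeq transcript for 130343 entries and, beside them, CPM values that the authors scaled to each library's total. Symbols were found for 82% of entries by their RefSeq identifiers. The members and lists were chosen with earlier results of these data known.

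Counts were tested with edgeR 4.0.16 in R 4.3.3 (TMM, factors 0.788 to 1.25, legacy=TRUE) over 13288 entries, those exceeding 1 CPM in 3 or more of the 16 libraries. The common coefficient of variation between mice that edgeR estimated was 0.211. Diets were compared within a tissue in a fit of all 16 libraries. Tissues, and the difference of the diet response, were compared with the mouse as a block, since SAT and VAT of a replicate number come from 1 mouse. Deviations of the 2 libraries of a mouse correlated between -0.00901 and 0.173 (median 0.0759, 8 pairs), and those of different mice of a diet between -0.154 and 0.121 (median -0.0392, 24 pairs). A call is an adjusted p below 0.05. Named are all 10 members, list genes called beyond a log2 fold change of 1, and the 2 transcripts nearest in pattern to members called beyond 1.5. SE is the fold change divided by the square root of F. Alternatives were DESeq2 1.42.0, limma voom 3.58.1 (mouse as a random effect), RLE size factors, other filters, legacy=FALSE, sums per gene, single-tissue fits, the block, and each mouse left out. Leaving out both mice with a shallow VAT library was added after seeing the data. The scripts were tested on simulated data.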

Additional observations from a re-analysis of the deposited data

Results flagged for a closer look

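Across 52 groups of 4 libraries, 3 held a library that stood apart from the other 3, where chance sets apart about 1 in 20 groups. In lean VAT, replicate 1 was at 289.5 CPM for G0s2 while the others lay between 101.6 and 126.4 CPM (gap 0.868 of the range), and at 10.9 CPM for Cidec NM_001372264 while the others lay between 5.92 and 6.65 CPM (gap 0.854). In obese VAT, replicate 1 was at 8.82 CPM for Bscl2 XM_006526691 while the others lay between 3.77 and 4.62 CPM (gap 0.831). Both are the shallow libraries, with 1256082 and 2247737 counts.

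The diet response differed between tissues, tested with the mouse as a block, for Hilpda (log2 -1.39, VAT minus SAT), Fitm2 (-0.74) and Plin1 XM_011250776 (-0.77).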

How the results depend on the processing

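Of 1050 alternative values of single transcripts, 976 kept their side of the threshold, 55 lost the call and 19 gained it. Most of the 1050 belong to transcripts without a call in the main fit, which had none to lose. For called transcripts, the alternatives that kept the call ran from 7 of 17 (Bscl2 XM_006526691 in SAT) to 18 of 18 (Hilpda in SAT). For the difference of the diet response they were 13 of 16 for Hilpda, 12 of 16 for Fitm2 and 10 of 15 for Plin1. The sign changed in 0 alternatives of a called value and in 40 of values that were not called. The number of genes called in obese against lean SAT (4) lay between 2 and 4 when each mouse was left out, that in VAT (4) between 1 and 5, that for the difference of the diet response (3) between 1 and 3, that for VAT against SAT of lean mice (1) between 0 and 1, and that for obese mice (5) between 4 and 6. Without the replicate block the difference of the diet response was called for 0 genes. With the replicate number as a block in the diet comparisons, SAT kept its number at 4 and VAT had 6, adding Hilpda (edgeR adjusted p = 0.0177) and Cidec. With low counts left in, 0 genes were called between tissues of lean mice, and with counts summed per gene 3 were in obese mice. The causes were not tested.

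Without both mice that gave a shallow VAT library, an alternative chosen after seeing the data, 3 genes were called in SAT, 5 in VAT, and 2, 1 and 6 in the other 3 comparisons, and the call for lean mice was then G0s2 in place of Bscl2. The log2 fold change in SAT was then 3 for Hilpda and 3.11 for Plin5. The SAT libraries of these mice were not shallow, and lean replicate 1 held the highest lean SAT value of both genes. With all mice, transcripts that did not overlap between diets, counted in each tissue apart, numbered 9, with Plin2 NM_007408 and Plin5 counted in both tissues. On CPM without TMM factors they numbered 7, as Plin2 NM_007408 in SAT and Plin1 XM_011250776 in VAT overlapped. Depth limits Plin5 and Hsd17b13 most, and Plin5 rests on 0 to 21 counts a library.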
